A study of Macaca mulatta with 20 samples.

Results

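The comparison is blood RNA of rhesus macaques 30 days after irradiation of the thorax against blood RNA taken before irradiation. Its members were chosen by their labels, the 5 day 30 arrays and the 5 pre-irradiation arrays, which are 10 of the 20 arrays of the study. The animals were male rhesus macaques (Macaca mulatta) of Chinese origin that received a single 10 Gy X-ray exposure of the whole thorax and no mitigating drug. Blood was collected into PAXgene tubes, which fix RNA at the draw, and total RNA was depleted of globin transcripts. The labels name 8 animals as blood donors for 4 groups of 5 arrays, which are the samples before irradiation and those taken 2, 5 and 30 days after it. The study's methods state that 1 RNA was pooled from a pair of animals, without naming its array. Macaque RNA was hybridised to Agilent 4x44K arrays whose 60-base probes were designed on human transcripts, so the level of 1 probe is not compared here with that of another.

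Whole blood RNA is a mixture. Neutrophils and monocytes carry the receptors of innate immunity, T and B lymphocytes carry antigen receptors, natural killer (NK) cells and cytotoxic T cells carry granzymes, and platelets and young red cells bring RNA of their own. Lymphocytes are among the most radiation-sensitive cells of the body, and the lung, which lies in the field, can develop an inflammation called radiation pneumonitis in the weeks to months after a thoracic exposure. In bulk blood, fewer cells of a type and less RNA per cell cannot be told apart.

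At day 30, LY96, the co-receptor that lets Toll-like receptor 4 bind bacterial lipopolysaccharide, had the largest increase among the genes that passed the test and were well above background on all 10 arrays. It was 1 of 4 passing genes among 19 of lipopolysaccharide and Toll-like receptor signalling, and 4 of 21 genes of the interleukin 1 and inflammasome list passed as higher, counts that were 2 and 0 without the replicate pairing. Several lymphocyte genes were lower, among them CD72 and FAIM3 of B cells and the survival gene BCL2. Another BCL2 probe had a change of 0.07 and did not pass. Of the T and B cell lists, 0 and 1 genes passed as lower without the replicate pairing. Of 19961 probes tested, 626 had a limma p under 0.005, the threshold used below for a gene that passed. Of these, 226 (1.13% of all probes tested) were higher at day 30 and 400 (2%) were lower. With no change, 99.8 probes would be past this threshold, and the Benjamini-Hochberg FDR there was 15.9%. With limma in the main fit, 0 probes (0%) had an FDR under 10% and the smallest adjusted p was 0.111. At an unadjusted p under 0.05 there were 3496 probes, and the test called here the methods' paired t-test gave 1 probe with an FDR under 10%. That name stands for a plain test of the pair differences in the values scaled here. The study itself used the class comparison tool of BRB Array Tools, paired by animal, which was not run here. With that tool it reported day 30 genes at an FDR under 10%, so the 1 probe is not the study's result. The number of probes with an FDR under 10% depended on the settings of limma. It was 822 with normexp background correction, 695 when probes had to be above background on every array, and 451 with an intensity trend. The series' own values, in which only 5653 probes were tested, gave 340, and all 20 arrays in the fit gave 121. It was 0 without the replicate pairing, with slide as a block, with correction for G and C content and with any 1 replicate left out. Under median scaling of the arrays 48.6% of the passing probes were lower, against 63.9% in the scaling used here, so which direction held more probes depended on the scaling. Fits without the replicate pairing gave 85 higher and 158 lower probes. Leaving out replicate 1 gave 128 higher and 258 lower probes, leaving out replicate 2 gave 138 higher, and leaving out replicate 4 gave 217 lower.

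With 1 probe per gene, 180 of 14132 genes (1.27%) passed as higher and 275 (1.95%) as lower. The median change over all genes was -0.01 on the log2 scale, and 48.9% of genes had a change above 0. The pre-irradiation and day 30 arrays did not overlap for 407 probes (2.04%). All pre-irradiation arrays lay in position 1 of their slides and all day 30 arrays in position 4, so that position and group cannot be told apart. Arrays of the same group had correlations over all probes of 0.971 to 0.983 before irradiation and of 0.968 to 0.981 at day 30. Such values also reflect differences in brightness between probes. The same correlations between groups are not given, so these do not show that arrays were more alike within a group.

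LY96 had log2 signals, relative to the 75th percentile of each array, of -0.78, -1.09, -0.12, -1.91 and 0.32 in pre-irradiation replicates 1 to 5 and of 1.72, 0.36, 2.29, 0.19 and 1.05 at day 30. It was higher at day 30 in every pair, although the brightest pre-irradiation array was above the dimmest day 30 array. The mean log2 change was 1.84 ± 0.28 (SE, n = 5 pairs), or 3.57-fold (limma, adjusted p = 0.126). Its partner TLR4, the receptor that signals on lipopolysaccharide, had log2 signals of 3.45, 2.71, 2.69, 2.00 and 3.38 before and of 5.40, 3.36, 3.24, 3.02 and 4.37 at day 30. TLR4 was highest at day 30 in replicate 1, and the groups overlapped. Its log2 change was 1.03 ± 0.23 (SE, 5 pairs; limma, adjusted p = 0.133), and it did not pass without replicate 4 or without replicate 5. Another TLR4 probe had 0.79 and did not pass.

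In the list of lipopolysaccharide and Toll-like receptor signalling, 4 of 19 genes tested passed as higher and 0 as lower, with a median log2 change of 0.48. Beside LY96 and TLR4 these were TLR1, a receptor of bacterial lipopeptides, with a log2 change of 0.83, and IRAK3, a kinase-like protein that dampens Toll-like receptor signalling, with 1.12. The list median was above 0 in 5 of 5 pairs. The lipopolysaccharide co-receptor CD14 had a log2 change of 0.47 and did not pass, and the adaptor MYD88 had 0.61 and did not pass. The count of passing genes was 2 without the replicate pairing, 2 without replicate 4, 6 without replicate 3 and 0 by the methods' t-test.

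**Figure D1:**
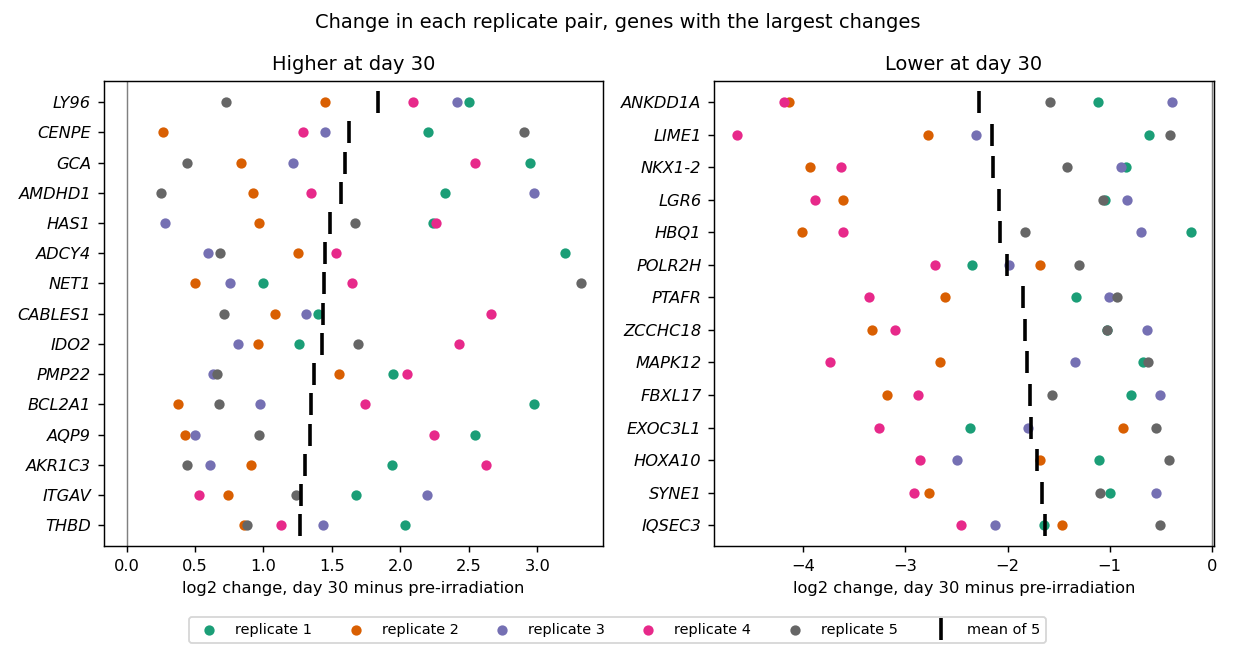
Each point is the log2 change of 1 replicate pair (x axis, day 30 minus pre-irradiation) for the 15 genes with the largest increases and 14 of the 15 with the largest decreases among those that passed, moved 1 way in all pairs and were well above background on all 10 arrays, and the black bar is the mean of the 5 pairs. By this rule all 5 pairs moved the same way for each gene. Mean changes were 1.27 to 1.84 for the higher genes and -2.28 to -1.64 for the lower genes. Arrays of a replicate pair lay on different slides. Compared within slides instead, 6 of the 15 increases were higher on 5 of 5 slides, 4 on 4 and 5 on 3. Of the 15 decreases 1 was lower on 5 of 5 slides and 14 on 4.

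Interleukin 1 signals through a receptor of the same intracellular family. IL1R1, its signalling receptor, had log2 signals of -1.63, -2.33, -2.15, -2.31 and -0.92 before irradiation and of -0.34, -1.75, -1.43, -0.73 and -0.11 at day 30. Every pair was higher at day 30, and the array of replicate 5 was the highest of both groups. The mean change was 0.99 ± 0.20 (SE, 5 pairs; limma, adjusted p = 0.126), and it did not pass without the replicate pairing. Another IL1R1 probe had 0.35 and did not pass. It was well above background on 0 of 5 pre-irradiation and 2 of 5 day 30 arrays. Of 21 genes of the interleukin 1 and inflammasome list, 4 passed as higher and 0 as lower, with a median log2 change of 0.66. The others were IL1RAP, the accessory chain of the receptor (0.78), NAIP, an inflammasome sensor of bacterial proteins (1.08), and CASP4, the caspase that binds lipopolysaccharide inside the cell (1.20). Another IL1RAP probe had 0.74 and did not pass. AIM2, a sensor of cytosolic DNA, had 0.67, IL1B had 0.51 and CASP1 had 0.77, and none of these passed. The count was 0 without the replicate pairing, with slide as the block in its place and by the methods' t-test. It was 1 without replicate 1, 4 or 5, 2 without replicate 2 or with correction for the G and C content of the probes, and 7 without replicate 3.

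All 15 monocyte and macrophage genes tested had a change above 0, with a median log2 change of 0.76, and 4 of them passed. CD163, the scavenger receptor for haemoglobin bound to haptoglobin, had log2 signals of 2.79, 3.58, 3.99, 2.46 and 3.56 before irradiation and of 4.66, 3.92, 4.65, 3.75 and 4.23 at day 30. Replicates 1 and 4, the lowest before irradiation, rose most. The log2 change was 0.97 ± 0.24 (SE, 5 pairs; limma, adjusted p = 0.148), and with 1 pair left out CD163 passed only where that pair was replicate 2. Also passing were CSF1R, the receptor of the growth factor of monocytes (0.73), and AIF1, an actin-binding protein of macrophages (0.91). CLEC7A, the receptor of fungal beta-glucan, passed as well (0.80). Other probes of AIF1 and CLEC7A, at -0.15 and 0.42, did not pass. Between 0 and 3 genes of this list passed when 1 pair was left out, with 0 without replicate 4 and 1 without replicate 1 or 2, and 0 passed without the replicate pairing and 1 with correction for G and C content.

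The 19 neutrophil genes tested likewise all had a change above 0, with a median log2 change of 0.78, but 1 of them passed. This was CXCR2, the chemokine receptor by which neutrophils leave the marrow and enter tissue, at 1.11 ± 0.26 (SE, 5 pairs; limma, adjusted p = 0.141), and it did not pass without replicate 1, 2 or 5. The neutrophil count was 0 without replicate 2, without the replicate pairing and by the methods' t-test. It was 4 without replicate 3 or with normexp background correction. The neutrophil median was 0.53 without replicate 1 and 1.07 without replicate 5. Genes of the neutrophil granules and NADPH oxidase had a median of 0.80, and 0 of 19 passed by limma or by the methods' t-test, while 8 had an unadjusted p under 0.05. Other fits passed some of them, 5 without replicate 5 or with normexp background correction and 4 with an intensity trend, and the median was 0.50 without replicate 1. The pairs differed widely, since the neutrophil median was 1.93 in replicate 1 and -0.09 in replicate 3. The calgranulins, calcium-binding alarmins abundant in neutrophils and monocytes, had large changes with large errors. Of 9 S100 genes 0 passed by limma or by the methods' t-test, and 5 had an unadjusted p under 0.05. With normexp 3 passed, and in the series' own values 4 of the 6 tested there did. S100A8 had log2 signals of 6.66, 6.34, 6.16, 3.19 and 6.98 before irradiation and of 9.07, 7.04, 6.99, 7.39 and 7.42 at day 30. The groups did not overlap, and pre-irradiation replicate 4 was far below the rest. The log2 change was 1.72 ± 0.51 (SE, 5 pairs; limma, adjusted p = 0.176). S100A12 had a log2 change of 2.42 (limma, adjusted p = 0.161), and LCN2, the iron-binding granule protein lipocalin 2, had 2.56 (limma, adjusted p = 0.164).

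**Figure D2:**
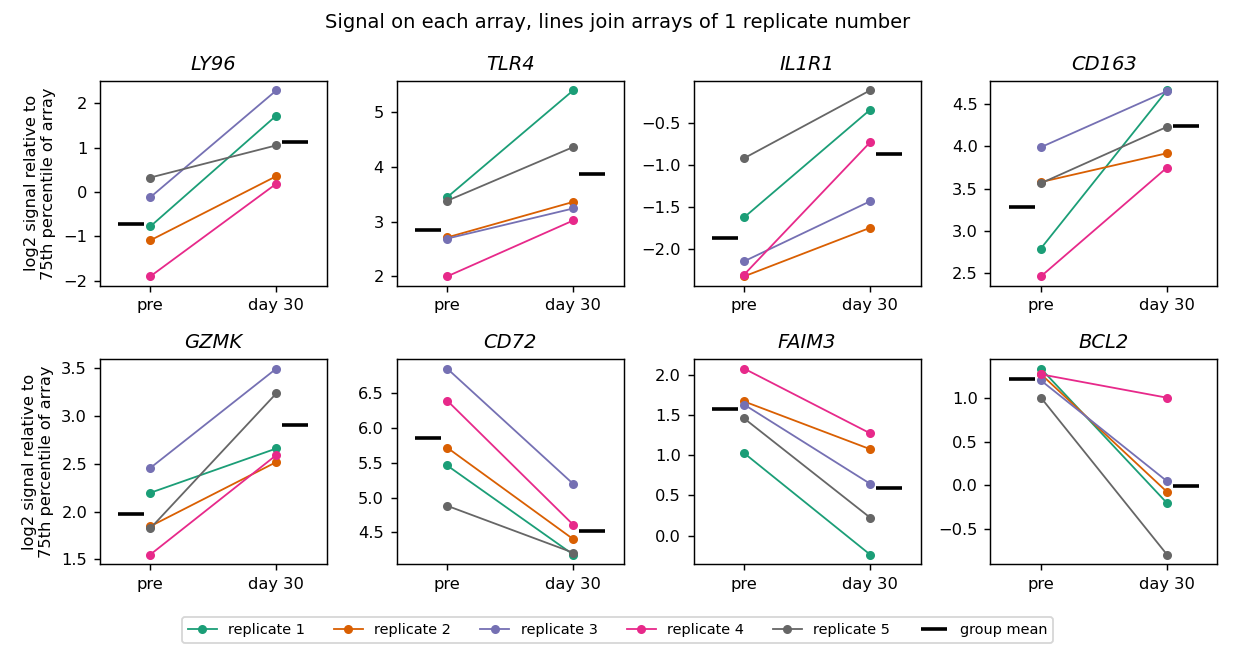
Log2 signal relative to the 75th percentile of each array (y axes) before irradiation and at day 30 for 8 genes, with a line for each replicate pair and a bar for the group mean. LY96, TLR4, IL1R1, CD163 and GZMK were higher in all 5 pairs, and CD72, FAIM3 and BCL2 were lower in all 5.

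Other genes among the 15 largest increases belonged to several functions. THBD, thrombomodulin, the receptor that turns thrombin towards anticoagulation, had log2 signals of 0.18, 1.23, 0.95, 0.49 and 1.53 before and of 2.21, 2.09, 2.38, 1.62 and 2.41 at day 30. The day 30 arrays were all above the pre-irradiation arrays. The log2 change was 1.27 ± 0.22 (SE, 5 pairs; limma, adjusted p = 0.126), and THBD passed under every alternative that was run. ITGAV, the integrin chain that takes part in activating TGF-beta, also had groups that did not overlap, with a log2 change of 1.28, and did not pass without replicate 1. BCL2A1, a survival gene of myeloid cells, had 1.35, with a second probe at 1.26 that also passed. It was the 1 higher gene of the BCL2 family list. In that list 0 of 18 genes passed as higher without replicate 3, 4 or 5, or without the replicate pairing. The same held with correction for G and C content, with median scaling and by the methods' t-test. HAS1, a synthase of hyaluronan, had 1.48, and its other probes were well above background on 0 of 5 pre-irradiation and 1 of 5 day 30 arrays. The remaining increases included IDO2 (1.43), an enzyme of tryptophan breakdown, PMP22 (1.37), a membrane protein of myelin, and AQP9 (1.34), a channel for water and glycerol in leukocytes. The complement list had 2 of 20 genes that passed as higher, CFD, complement factor D (1.22), and VSIG4, the macrophage receptor of C3 fragments (1.23), which was well above background on 3 of 5 pre-irradiation arrays. This count was 0 without replicate 1, 4 or 5, without the replicate pairing and by the methods' t-test, and the list median of 0.32 was 0.18 without replicate 1 and 0.12 without replicate 4.

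RRM2, the subunit of ribonucleotide reductase made in dividing cells, was near background before irradiation, with log2 signals of -5.57, -6.43, -6.06, -6.09 and -4.18. At day 30 it had -2.98, -5.28, -3.35, -3.19 and -2.61. Day 30 replicate 2 was the lowest of its group and lay within the pre-irradiation range. RRM2 was well above background on 0 of 5 pre-irradiation arrays and on 4 of 5 day 30 arrays, so its change is a bound of at least 1.43-fold higher (limma, adjusted p = 0.120), taken against the dimmest signals well above background. It passed under each alternative in which it was tested, which leaves out the series' values and the filter for probes well above background on all 20 arrays. Genes well above background on 0 of 5 pre-irradiation arrays and on 5 of 5 day 30 arrays included ZFYVE16, an endosomal protein, which was at least 2.07-fold higher, and the centrosomal gene CNTLN, at least 1.48-fold. CENPE, the kinesin that holds chromosomes on the spindle, had a log2 change of 1.62 and did not pass without replicate 1. These were the 2 of 36 cell cycle genes that passed, and the list median was 0.22. MKI67, a marker of dividing cells, had -0.20 and did not pass. Of 38 DNA repair genes, 1 passed, RAD54L at 0.82, and 0 did without replicate 1, 4 or 5, without the replicate pairing, by the methods' t-test or with correction for G and C content. Of 28 p53 target genes 0 passed by limma or by the methods' t-test, with a median of 0.09 and an unadjusted p under 0.05 for 1 higher and 1 lower gene.

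Of 24 T cell genes tested, 2 passed as lower, and the count was 0 without the replicate pairing, by the methods' t-test and without replicate 1, 3 or 5. All 24 had a change below 0, with a median log2 change of -0.45, against -0.01 over all genes. The 2 that passed were CD7, a surface protein of T and NK cells (-0.80), and PRKCQ, the kinase of T cell receptor signalling (-0.71). Chains of the T cell receptor complex and the co-receptors had changes of -0.64 for CD3E, -0.72 for CD4 and -0.21 for CD8A, none of which passed. The largest fall of the list median was in replicate 1, at -1.09, and the smallest in replicate 5, at -0.11. The summed signal of the list was 216.0 on the day 30 array of replicate 1 and 288.8 to 429.3 on the other 4, in units of each array's 75th percentile, against 353.4 to 511.2 before irradiation. PRKCQ did not pass with any 1 pair left out, and CD7 did not pass without replicate 1, 3 or 5.

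Among B cell genes, 15 of 19 had a change below 0, the median log2 change was -0.35, and 2 passed. The median was -1.14 in replicate 1 and -0.48 to -0.13 in the other pairs, and without replicate 1 it was -0.11, with 2 genes passing. The count was 1 without the replicate pairing and 0 with slide as the block in its place. CD72, an inhibitory co-receptor of the B cell receptor, had log2 signals of 5.46, 5.72, 6.85, 6.39 and 4.88 before and of 4.18, 4.40, 5.20, 4.61 and 4.21 at day 30. Only the lowest pre-irradiation array, of replicate 5, lay within the day 30 range. It fell by 1.34 on the log2 scale (SE 0.20, 5 pairs; limma, adjusted p = 0.126), and its probe holds 68.3% G and C. FAIM3, the receptor of IgM, had log2 signals of 1.03, 1.67, 1.64, 2.08 and 1.46 before irradiation and of -0.24, 1.08, 0.65, 1.28 and 0.22 at day 30. The groups overlapped through pre-irradiation replicate 1. Its log2 change was -0.98 ± 0.18 (SE, 5 pairs; limma, adjusted p = 0.126), and FAIM3 passed with each replicate left out but not without the pairing. CD79A, a chain of the B cell receptor, had -0.65 and did not pass.

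BCL2, the survival gene that keeps resting lymphocytes alive, had nearly equal log2 signals before irradiation, of 1.34, 1.28, 1.21, 1.28 and 1.01, and of -0.20, -0.07, 0.05, 1.01 and -0.79 at day 30. Day 30 replicate 4 reached the level of the lowest pre-irradiation array and the other 4 were lower. The log2 change was -1.23 ± 0.24 (SE, 5 pairs; limma, adjusted p = 0.126), while another BCL2 probe had 0.07 and did not pass. MARCKSL1, a regulator of actin at the membrane, had log2 signals of -0.34, -0.01, -0.40, 0.14 and -0.99 before and of -2.39, -0.92, -1.84, -1.55 and -1.48 at day 30. All day 30 arrays but that of replicate 2 were below every pre-irradiation array. MARCKSL1 fell by 1.32 on the log2 scale (SE 0.24, 5 pairs; limma, adjusted p = 0.126).

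**Figure D3:**
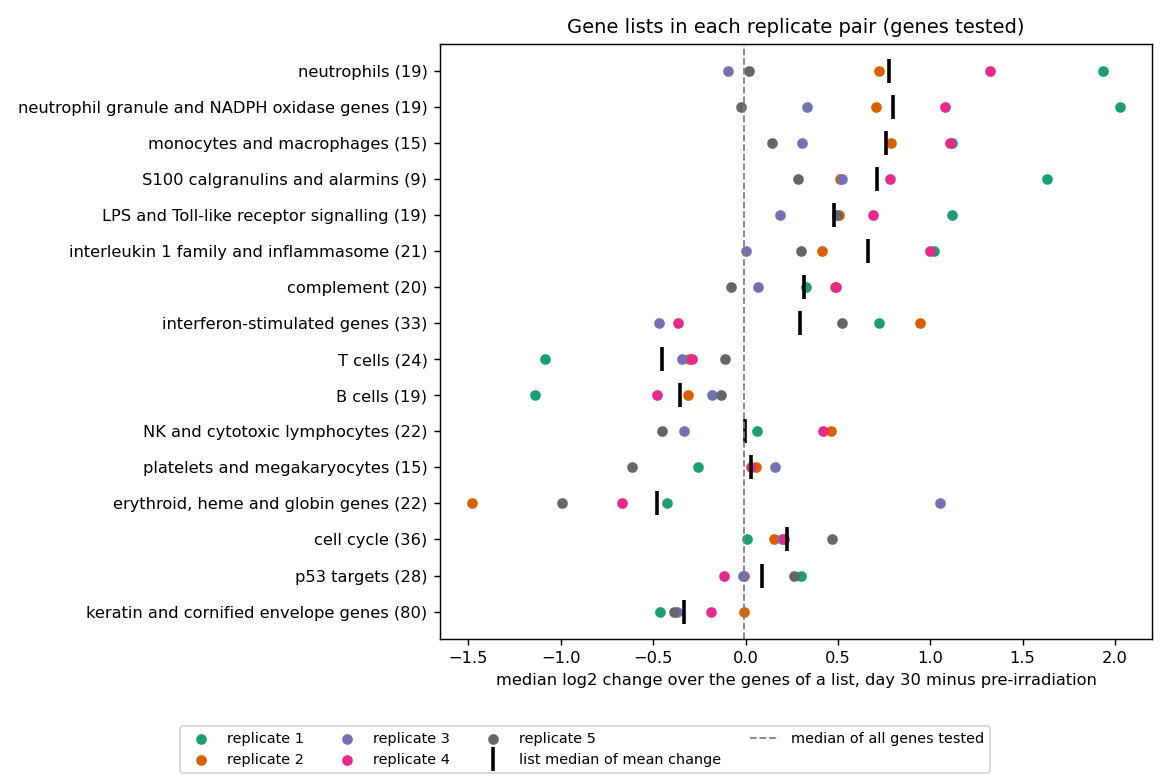
Median log2 change over the genes of each list (x axis, day 30 minus pre-irradiation) in each replicate pair, with the number of genes tested in brackets, a bar for the median of the mean changes and a dashed line for the median of all genes. Myeloid and innate lists lie to the right in most pairs (neutrophils 0.78, monocytes 0.76), T and B cell lists to the left in all 5 (-0.45 and -0.35).

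NK and cytotoxic genes had no common direction against pre-irradiation, with 11 of 22 above 0 and a median log2 change of -0.00. GZMK, a granzyme of memory T cells and some NK cells, had log2 signals of 2.2, 1.85, 2.46, 1.55 and 1.82 before and of 2.66, 2.52, 3.50, 2.59 and 3.24 at day 30. Its groups did not overlap, and the log2 change was 0.93 ± 0.19 (SE, 5 pairs; limma, adjusted p = 0.126), and GZMK did not pass without replicate 3 or 5. NCAM1, the NK marker CD56, also passed, at 0.79. Of the list, 0 genes passed without replicate 3, with slide as the block or with replicate and slide over all 20 arrays, and 1 without the replicate pairing. The platelet list had a median of 0.03 and 0 of 15 genes that passed by limma or by the methods' t-test, with an unadjusted p under 0.05 for 1 higher and 2 lower genes. Erythroid genes had a median of -0.48 and 2 of 22 that passed, the globin genes HBQ1 (-2.07) and HBZ (-0.91). Replicate 3 stood apart, with an erythroid median of 1.05 against -1.48 to -0.43 in the other pairs, and without it 8 erythroid genes passed as lower with a median of -0.87. The count was 0 without replicate 2, with correction for G and C content, with slide as a block, with all 20 arrays in the fit and by the methods' t-test. Since the RNA had been depleted of globin transcripts, levels of globin genes also depend on that step, whose part was not tested. HBB, a chain of adult haemoglobin, had a log2 change of -0.16 and did not pass.

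Most of the largest decreases shared a pattern across arrays. Of the 15 genes with the largest decreases by the same rule, from ANKDD1A (-2.28) to IQSEC3 (-1.64), 12 had the same arrays highest. Pre-irradiation replicates 2, 3 and 4 were the highest of their group and day 30 replicate 3 was the highest of its own, which was the case for 0 of the 15 largest increases. The B cell gene CD72 had the same arrays highest. This pattern was read from the genes themselves, and its share over all probes tested is not given. Selection for a large decrease also favours high pre-irradiation signals, so the counts of 12 and 0 are a description only. NKX1-2, a homeobox transcription factor, had log2 signals of 5.06, 7.28, 7.39, 7.40 and 4.56 before irradiation and of 4.21, 3.35, 6.49, 3.77 and 3.15 at day 30. Pairs 2 and 4 carried most of the change of -2.14 ± 0.49 (SE, 5 pairs; limma, adjusted p = 0.138), and NKX1-2 did not pass without either of them. LIME1, a T cell adaptor, LGR6, a receptor of R-spondins, and PTAFR, the receptor of platelet-activating factor, had changes of -2.15, -2.09 and -1.85. POLR2H, a subunit shared by the 3 RNA polymerases, had the smallest adjusted p reached (limma, 0.111), with log2 signals of 3.88, 3.34, 5.34, 4.76 and 2.93 before and of 1.53, 1.66, 3.35, 2.05 and 1.63 at day 30. Day 30 replicate 3 overlapped the pre-irradiation arrays and the other 4 did not. POLR2H fell by 2.01 on the log2 scale, and a second POLR2H probe had a change of 0.45 and did not pass. PTAFR likewise had a second probe at 0.32. ANKDD1A had another probe at 0.86 that did not pass and was well above background on 0 of 5 pre-irradiation and 3 of 5 day 30 arrays.

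Some genes best known from skin, hair and the sense of smell passed as lower. Of 80 keratin, keratin-associated and late cornified envelope genes tested, 69 had a change below 0 and 8 passed as lower, with a median of -0.33. These were KRT7, KRT8, KRT31, KRT73, KRT81, KRT86, KRTAP4-7 and LCE1C, with changes of -0.98 to -0.71. Other probes of KRT8 and KRTAP4-7, at -0.06 and -0.13, did not pass. Of the list, 2 genes passed when the trend with G and C content of the probes was removed or when replicate 2 or 4 was left out. The count was 3 without the replicate pairing and 0 with slide as the block in its place. Of 54 olfactory receptor genes 4 passed as lower, with a median of -0.21, and 1 did without replicate 2 and 0 without the replicate pairing or with slide as a block. Under normexp background correction the medians turned to 0.03 for the keratin and cornified envelope genes and to 0.20 for the olfactory receptors. The median G and C share of the keratin and cornified envelope probes was 55%.

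Passing probes differed in base composition by direction. Probes that passed as higher had a median of 38.3% G and C, those that passed as lower 53.3%, and all probes tested 45%. More than 50% G and C was found in 7.08% of the higher probes, 64.5% of the lower probes and 26.0% of all probes. Among probes with over 60 and up to 65% G and C, 18.9% passed as lower and 0 as higher, whereas among those with over 30 and up to 35% the shares were 0.349% lower and 2.61% higher. Across probes, which are not independent replicates, the correlation of the day 30 change with G and C content was -0.32 for the mean change and -0.37 to -0.09 in the single pairs. It was -0.06 for the day 2 change and 0.02 for the day 5 change. When the trend with G and C content was removed from each pair, 211 probes passed as higher and 248 as lower. The part of base composition in the single results was not tested.

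Probes of the largest increases held 35 to 55% G and C and those of the largest decreases 35 to 73.3%, so the ranges overlapped. The sequences of a pair of probes from each direction are shown. They were picked for low G and C content among the largest increases and for high content among the largest decreases. Their contrast in content follows from that choice. The first 30 bases of each 60-base probe are given 5′ to 3′ as in the array files, with G and C in capitals, and the positions are those of the human genome (hg19) in the array annotation.
BCL2A1, chr15:80263166-80263195, minus strand: tGtaaCCatatttGCatttGaaGGtattCt
ITGAV, chr2:187545295-187545324, plus strand: aaaGaGtGattaaGtGaGGttatttaCCCC
NKX1-2, chr10:126136144-126136173, minus strand: CtGGCCCtCCCGGCaCCGGCGCtCtGCaCt
LIME1, chr20:62370066-62370095, plus strand: CCtaCCaGaCCCtCCCGCtCaGGGCCCtGG
The stretches of BCL2A1 and ITGAV, both higher at day 30, hold 9 and 11 G or C bases of 30. Those of NKX1-2 and LIME1 hold 23 and 22, and both probes were lower at day 30 (-2.14 and -2.15).

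**Figure D4:**
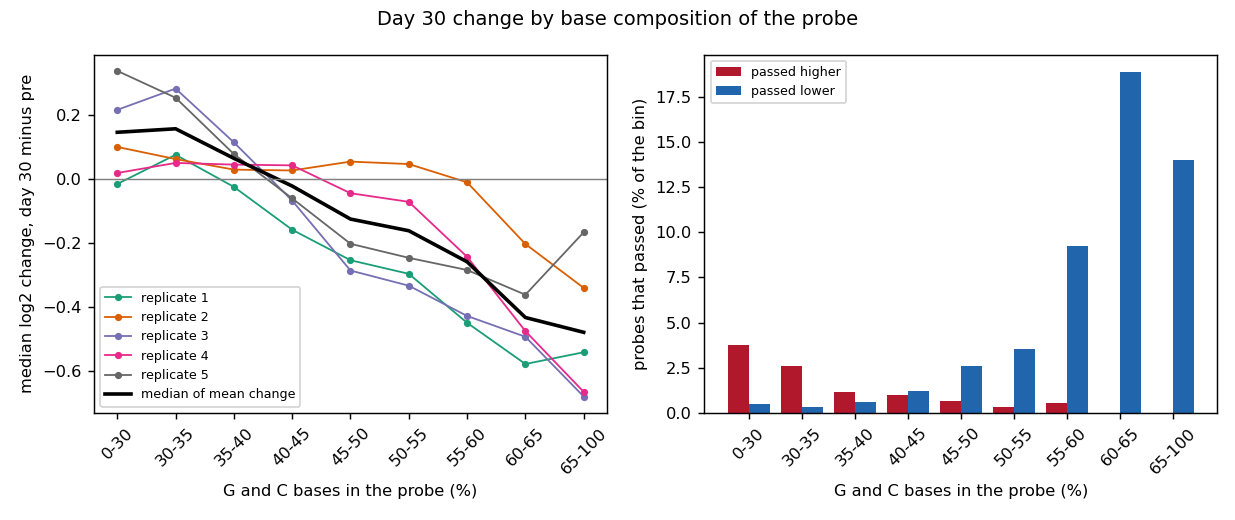
Left, median log2 change at day 30 (y axis) of probes grouped by G and C content (x axis, %), for each replicate pair and for the mean change of the 5 pairs. Right, percent of the probes of each group that passed as higher or as lower. The share of lower probes was 18.9% in the group from 60 to 65% G and C and 0.349% in the group from 30 to 35%.

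Day 30 was also compared with days 2 and 5, after the same exposure. Between day 30 and day 2, 290 probes (1.45%) had a p under 0.005, 104 of them higher at day 30 and 186 lower, and 10 had an FDR under 10%. Leaving out 1 replicate gave 156 without replicate 1, 158 without replicate 4, 162 without replicate 5 and 585 without replicate 3. Of 22 NK and cytotoxic genes 12 passed, all higher at day 30, with a median log2 difference of 1.21. GZMA, a granzyme that enters target cells, had log2 signals of -2.97, -1.29, -3.04, -2.22 and -2.84 at day 2 and of -1.38, 0.54, 0.06, 0.39 and 0.64 at day 30. Only day 30 replicate 1 lay within the day 2 range. The log2 difference was 2.52 ± 0.30 (SE, 5 pairs; limma, adjusted p = 0.104). Under normexp background correction it was 1.23 (limma, adjusted p = 0.711), the NK median was 0.64 and 10 of the 22 genes passed. KLRB1, the NK receptor CD161, had a difference of 2.29, KLRC4, an NK receptor of the NKG2 family, 1.98, and GZMK 1.92, each with a limma adjusted p of 0.0940. The granzyme GZMH had 2.03 (limma, adjusted p = 0.200), and GNLY, a pore-forming protein of cytotoxic granules, had 1.42. Under normexp KLRB1 had 1.42 and KLRC4 1.24 (limma, adjusted p = 0.321 and 0.270). GZMK then had 1.89 and GZMH 2.26 (limma, adjusted p = 0.0430 and 0.0964). With no filter on dim probes KLRB1, KLRC4 and GZMK each had a limma adjusted p of 0.203.

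Platelet genes went the other way, with 12 of 15 lower at day 30 than at day 2 and a median of -1.46. ITGA2B and ITGB3, the chains of the platelet fibrinogen receptor, had differences of -1.84 and -1.99, and the chemokine PF4 had -1.61. This count was 5 without replicate 1, 4 without replicate 4 or 5 and 3 by the methods' t-test. C1QA had log2 signals of 0.29, -2.04, -0.20, 0.15 and 1.05 at day 2 and of -2.67, -3.44, -3.11, -1.81 and -2.10 at day 30, and the groups overlapped through day 2 replicate 2 alone. C1QA, C1QB and C1QC, the chains of the first component of complement, had differences of -2.48, -2.22 and -2.52 and were 3 of 20 complement genes that passed. Under normexp the difference of C1QA was -1.24 (limma, adjusted p = 0.495). Of 28 p53 targets 4 passed as lower at day 30 than at day 2, with a list median of -0.18. These were CDKN1A, the inhibitor of cyclin-dependent kinases (-1.32), TNFRSF10B, a death receptor (-0.98), BAX, a pore-forming protein of apoptosis (-0.68), and PHLDA3, an inhibitor of AKT (-0.66).

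The days share the pre-irradiation arrays, so their changes against it are set side by side only. The NK and cytotoxic median was -1.22 at day 2, -0.59 at day 5 and -0.00 at day 30, and the platelet median was 1.42, 0.43 and 0.03. LY96 had changes of 1.17, 1.85 and 1.84, and THBD of 1.39, 0.89 and 1.27. The T cell median was -0.40, -0.31 and -0.45, and that of monocyte genes 0.68, 0.41 and 0.76. PMP22 had -0.27, -0.26 and 1.37, and BCL2 had -0.11, -0.22 and -1.23. Among the 15 largest increases 4 had a p under 0.005 at day 2 and 7 at day 5, and among the 15 largest decreases 0 did at either day. Over all 19961 probes, 379 were higher and 131 lower at this threshold at day 2, and 252 and 63 at day 5. The genes were picked for their change against the same pre-irradiation arrays, and the counts with no change were not computed.

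**Figure D5:**
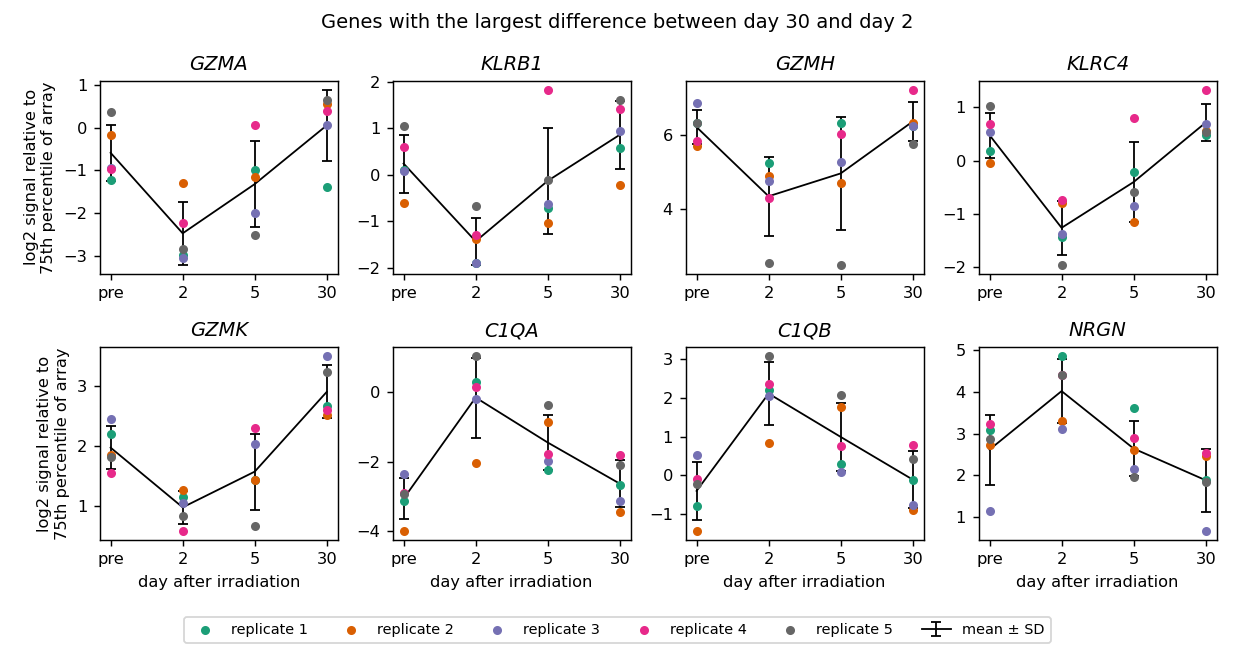
Log2 signal relative to the 75th percentile of each array (y axes) before irradiation and 2, 5 and 30 days after it, for 8 of the genes with the largest differences between day 30 and day 2 among those that passed by the same rule. Points are arrays, and lines and bars are the mean ± SD of 5 arrays. Granzyme and NK receptor genes were lowest at day 2 (mean of KLRB1 -1.43 against 0.86 at day 30) and C1QA, C1QB and NRGN were highest then.

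Between day 30 and day 5, 136 probes (0.681%) had a p under 0.005, 28 higher at day 30 and 108 lower. With limma, 0 had an FDR under 10%, 1693 had an unadjusted p under 0.05, 134 had a p under 0.005 in the methods' t-test, and the smallest adjusted p was 0.538. The count was 67 without replicate 1, 89 without replicate 5 and 229 without replicate 4. Among genes with a p under 0.005 in this comparison that moved 1 way in 5 of 5 pairs and were well above background on all 10 arrays, the largest differences were those of CABLES1, a regulator of cell cycle kinases, at 1.43, and GZMK at 1.33, both higher at day 30, and of RUNDC3A at -1.55 and MYL9, a myosin light chain of platelets and smooth muscle, at -1.19. Each of these had a limma adjusted p of 0.561.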

How the data were processed

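The authors deposited 1-colour scanner output of Agilent human 4x44K arrays (Cy3, Feature Extraction 10.7 in the submitters' notes and 12.0.2.2 in file headers), and a log2 table. The deposited processed signal is an intensity, background-subtracted and spatially detrended, not normalized between arrays. The log2 table served as an alternative (correlation with the scanner values of at least 0.999 per array, centring unstated). Control spots and outlier-flagged spots were left out, spots of a probe were averaged as log2 values and each array's 75th percentile was subtracted. The 19961 probes (of 34127) flagged as above background on 5 or more of 20 arrays were tested where at least 4 pairs had values. The 5 pairs were tested in limma 3.58.1 (R 4.3.3, lmFit and eBayes, two-sided), with the replicate number as a block because the study's methods paired by animal. Which animal each number stands for is not given in the sources used here, and p-values measure only the spread between these samples. Deviations from the group means of same-numbered arrays correlated at 0.18, 0.41, 0.43, 0.07 and 0.04, against a median of -0.05 for different numbers. In counts over genes and lists each gene is represented by its tested probe with the highest mean signal over all arrays, and elsewhere by the probe that met the naming rule. Named genes are the 15 with the largest change in each direction among those that passed (5 of 5 pairs 1 way, well above background on 10 of 10 arrays, a gene symbol), up to 5 measurable only as bounds, list members that passed, the member of each list with the brightest probe, genes the study measured by PCR, and the 5 with the largest difference from day 2 and day 5, and other members were named after their values were seen. The members of the comparison and the gene lists were chosen with earlier results of these data known. The fit was tested on simulated data of 19941 probes for day 30 against pre-irradiation, where 16%, 64%, 88% and 86% of true log2 changes of 0.5, 1, 1.5 and 2 passed. Of the genes counted, 1 of the 15 largest decreases is not reported here. The number of arrays limits the precision. Alternatives were other scalings, filters, backgrounds, blocks and fits, and leaving out each pair.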

Additional observations from a re-analysis of the deposited data

Results flagged for a closer look

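A sample stood apart from the other 4 of its group, by the gap to its nearest neighbour as a share of the group's range, in 16 of 94 groups of 5 values, where chance gives about 1 in 20, or 4.7. Among named genes the share at day 30 was 0.740 for GCA, where replicate 1 was highest. It was 0.719 for ANKDD1A, 0.785 for LIME1, 0.799 for LGR6, 0.716 for POLR2H, 0.713 for PTAFR, 0.793 for ZCCHC18, 0.774 for MAPK12, 0.770 for EXOC3L1 and 0.774 for SYNE1, in all of which day 30 replicate 3 was highest.

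For the summed signal of gene lists the share at day 30 was 0.893 for neutrophil granule genes and 0.782 for monocytes and macrophages, both highest in replicate 1. It was 0.869 for NK and cytotoxic lymphocytes, highest in replicate 4, and 0.744 for erythroid genes, highest in replicate 3. Before irradiation it was 0.828 for plasma cells, highest in replicate 3, and 0.733 for platelets, lowest in replicate 3.

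The day 30 and day 2 changes against pre-irradiation differed, as tested directly between the days, for 290 probes, among them 12 NK and cytotoxic genes and 12 platelet genes. The day 30 and day 5 changes differed for 136 probes.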

How the results depend on the processing

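Against 226 higher and 400 lower probes, the fit with no replicate block gave 85 and 158, and the slide as a block gave 59 and 71 (54.6% lower). The block with correction for G and C content gave 211 and 248 (54.0% lower). Same-numbered arrays correlated best with their own number in 3 of 5 cases. Normexp background correction gave 420 higher probes (54.8% lower), the series' own log2 values 108 and 232 of 5653 probes tested (68.2%), and the methods' paired t-test 94 and 270 (74.2%). The share of lower probes was 48.6% under median scaling, 57.2% with all 20 arrays in the fit, 59.2% with an intensity trend and 56.2% with the percentile over probe averages. Probes with an FDR under 10% numbered 822 with normexp, 340 with the series' values, 695 when probes had to be above background on every array, 451 with the trend, 121 with all 20 arrays, 7 with slide added to these, 4 with probe averages and 1 with the t-test. Leaving out 1 replicate gave 128 to 223 higher, 217 to 316 lower, 58.6 to 66.8% lower and 0 at an FDR under 10%. Day 30 against day 2 gave 156 to 585 then, 122 with normexp, 117 with the series' values, 438 with all 20 arrays and 154 with the slide block. Day 30 against day 5 gave 67 to 229, and 207, 69, 299 and 87 in the same order, 245 with replicate and slide and 53 with no block. Of 82 named genes 25 passed with no replicate block, 15 with the slide block, 18 with the t-test, 49 with correction for G and C content and 38 to 54 with a replicate left out. Signs reversed for SLC32A1 (0.24, normexp) and for 18 of 35 list medians under at least 1 alternative. With normexp these included keratins (-0.333 to 0.029), olfactory receptors (-0.212 to 0.202), neuronal genes (-0.308 to 0.099, and 0.047 in the series' values) and basophils and eosinophils (-0.285 to 0.120). The BCL2 family median of 0.047 was -0.023 in the series' values, the TGF-beta median of 0.099 was -0.094 with no filter on dim probes, and that of stem and progenitor genes, 0.322, was -0.078 when probes had to be above background on every array. The other medians that changed sign were at most 0.144 from 0. Normexp moved the median of all probes to 0.12. The slide block, the correction for G and C content and the percentile over probe averages were chosen after seeing the data. The cause of these differences was not tested. Replicate and slide as blocks in the 10 arrays alone left no residual degrees of freedom and could not be fitted. Of the 82 genes 25 had another tested probe, and for 11 of these another probe had the opposite sign.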

Other observations

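Some gene groups outside the comparisons above had few or no passing members. Of 33 interferon-stimulated genes 1 passed, TRIM22, an antiviral ubiquitin ligase, at a log2 change of 0.79, and the list median was 0.29 with pairs from -0.47 to 0.94. The count was 0 without replicate 1, 2 or 5, without the replicate pairing, with correction for G and C content and by the methods' t-test, and 2 without replicate 4, and the median was 0.07 without replicate 2 and 0.52 without replicate 4. Of 14 genes of MHC class II presentation 0 passed by limma (median -0.19, 1 lower at an unadjusted p under 0.05). Limma also passed 0 of 75 respiratory chain genes (median 0.08, 6 higher at p under 0.05), 0 of 42 proteasome genes (0.08, 2 higher and 1 lower), 0 of 20 antioxidant genes (0.17, 2 higher and 1 lower) and 0 of 28 TNF and NF-kB genes (0.17, 5 higher and 2 lower). The methods' t-test passed 1 respiratory chain and 1 proteasome gene as higher and none of the other 3 lists. Other limma fits passed 2 antioxidant genes as higher with an intensity trend or all 20 arrays, and 1 without replicate 2 or 3. Of the TNF and NF-kB genes, 1 passed as higher without replicate 3 and 1 as lower with all 20 arrays. Medians were 0.14 for 9 plasma cell genes, 0.03 for 12 dendritic cell genes, -0.29 for 14 basophil and eosinophil genes and -0.25 for 5 GIMAP genes, with 0 passing by either test and an unadjusted p under 0.05 for 1, 0, 1 and 1 genes. With 1 replicate left out the medians were -0.05 to 0.27 for plasma cells and -0.07 to 0.19 for dendritic cells. They were -0.37 to -0.07 for basophils and eosinophils, of which 1 gene passed as lower without replicate 2.

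Among 27 lysosome and autophagy genes 3 passed as higher, the protease CTSB (0.96), the receptor SCARB2 (0.60) and the transcription factor MITF (0.85, with a second passing probe at 1.05). None passed as higher without replicate 1, 2 or 3, with correction for G and C content or without the replicate pairing, and 1 did without replicate 4 or 5. TPP1, a lysosomal peptidase, passed as lower at -1.24, while another TPP1 probe had 0.16. HSF1, the regulator of heat shock genes, passed as lower at -1.15, with another probe at 0.10, and it was the 1 of 23 heat shock genes that passed. Of 9 stem and progenitor genes, the homeobox genes HOXA9 (-1.09) and HOXA10 (-1.71) passed as lower, while 6 of the 9 had a change above 0 and the list median was 0.32. That median was 0.07 without replicate 1 and 0.08 without replicate 4, and 0 genes passed by the methods' t-test or with slide in place of the replicate block. Of 75 ribosomal protein genes 1 passed as higher, RPL11 at 0.88, against 1.27% of all genes, and the list median was 0.03. None passed as higher without replicate 1, 2, 3 or 4, in the fits of all 20 arrays or by the methods' t-test, which passed 1 as lower. Without the replicate pairing 3 passed as higher, and with slide as the block in its place 2 did.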
